A study of Mus musculus with 24 samples.

Results

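The sodium and calcium channel genes described here are the voltage-gated channel subunits carried by a mouse bead array. They were chosen by symbol: the sodium channel genes Scn followed by a number and a or b (Scn10a and Scn11a not included), the calcium channel pore genes Cacna1a to Cacna1i, and the auxiliary genes of the Cacna2d, Cacnb and Cacng series. The rule found 31 genes among the 19057 gene symbols of the array: 5 sodium channel alpha subunits, 3 sodium channel beta subunits, 9 calcium channel alpha1 subunits, 3 alpha2delta subunits, 3 beta subunits and 8 gamma subunits. Each gene was read by 1 probe, the one with the highest mean deposited signal, and 21 of the 31 genes had more than 1 probe. The 24 arrays form 8 groups of 3 biological replicates. All mice were of the FVB strain and 4 days old (postnatal day 4). WT and SMA mice were each sampled in both motor columns of the spinal cord, medial (MMC) and lateral (LMC), in the dorsal root ganglion (DRG) and in raphe cells of the brain stem. SMA is taken to mean spinal muscular atrophy, in which lack of survival motor neuron protein damages motor neurons. Which Smn allele or transgene these mice carry, and how cells were obtained, are not given in the sources used here.

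Voltage-gated sodium channels open when the membrane depolarizes and carry the rising phase of the action potential. Their alpha subunit forms the pore, and the beta subunits are single-span proteins that alter gating and hold the channel at the cell surface. In voltage-gated calcium channels the alpha1 subunit forms the pore, the cytoplasmic beta subunit and the extracellular alpha2delta subunit bring it to the membrane, and calcium entry through them drives transmitter release, gene expression and firing patterns. The gamma genes share a family name, but several of them (Cacng2, Cacng3, Cacng5 and Cacng8 among them) encode TARPs, which accompany AMPA-type glutamate receptors. Spinal motor neurons, sensory neurons and serotonergic neurons are excitable cells that use different mixtures of these subunits.

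Several of these genes are neighbours. In the RefSeq genes of GRCm38.p6, a mouse assembly, Scn3a and Scn2a lie side by side on chromosome 2, with Scn1a and Scn7a close by. Scn2b and Scn4b lie side by side on chromosome 9, Cacng1, Cacng4 and Cacng5 in a row on chromosome 11, and Cacng7, Cacng8 and Cacng6 in a row on chromosome 7. The 4 genes with the smallest p among the WT tissues, described further on, are Scn4b, Scn2a, Scn7a and Scn2b. Promoters of the neighbours Scn2b and Scn4b are shown because both genes were lowest in raphe on the probes used. A second Scn4b probe had its lowest mean in DRG. Those of Scn2a and Scn7a, close on 1 chromosome, are shown for their opposite tissue patterns. The sequences are those of RefSeq on GRCm38.p6, from 250 bases before to 50 after the annotated start, and the table held a promoter for 23 of the 31 genes. Capitals mark matches on either strand to TATAAA (the TATA box), to CCAAT (the CCAAT box) or to GGGCGG (the GC box), which do not overlap one another here.
Scn2b, chr9:45117626-45117925, plus strand: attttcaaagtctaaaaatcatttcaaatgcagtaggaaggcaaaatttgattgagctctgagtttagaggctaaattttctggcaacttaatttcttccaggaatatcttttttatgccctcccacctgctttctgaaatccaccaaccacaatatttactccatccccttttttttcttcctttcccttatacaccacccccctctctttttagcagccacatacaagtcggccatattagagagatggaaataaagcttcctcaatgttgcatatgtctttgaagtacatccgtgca
Scn4b, chr9:45138374-45138673, plus strand: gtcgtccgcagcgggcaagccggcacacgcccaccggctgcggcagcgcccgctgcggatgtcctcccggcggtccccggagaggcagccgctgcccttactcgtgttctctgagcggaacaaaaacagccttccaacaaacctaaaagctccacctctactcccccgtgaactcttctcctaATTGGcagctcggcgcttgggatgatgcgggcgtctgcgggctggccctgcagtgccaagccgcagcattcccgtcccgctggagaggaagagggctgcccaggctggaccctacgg
Scn2a, upstream start, chr2:65620519-65620818, plus strand: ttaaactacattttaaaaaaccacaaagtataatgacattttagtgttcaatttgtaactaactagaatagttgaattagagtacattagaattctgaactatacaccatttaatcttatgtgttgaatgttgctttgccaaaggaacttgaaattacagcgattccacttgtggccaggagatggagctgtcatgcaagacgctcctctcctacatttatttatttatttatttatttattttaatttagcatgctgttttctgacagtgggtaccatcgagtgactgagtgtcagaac
Scn2a, downstream start, chr2:65668436-65668735, plus strand: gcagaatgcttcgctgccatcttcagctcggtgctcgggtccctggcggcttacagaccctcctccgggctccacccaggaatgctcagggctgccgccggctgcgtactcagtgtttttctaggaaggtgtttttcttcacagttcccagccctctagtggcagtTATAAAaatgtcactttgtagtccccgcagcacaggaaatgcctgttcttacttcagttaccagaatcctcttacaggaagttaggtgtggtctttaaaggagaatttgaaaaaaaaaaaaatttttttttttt
Scn7a, chr2:66784861-66785160, minus strand: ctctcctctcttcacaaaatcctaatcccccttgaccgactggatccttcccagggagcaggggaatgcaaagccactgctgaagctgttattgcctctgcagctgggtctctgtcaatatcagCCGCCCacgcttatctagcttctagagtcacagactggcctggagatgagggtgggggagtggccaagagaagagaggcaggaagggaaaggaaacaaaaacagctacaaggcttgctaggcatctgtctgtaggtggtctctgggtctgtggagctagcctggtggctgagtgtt
The Scn2b window held 2 CpG dinucleotides in 300 bases with a GC content of 38.3%, and that of its neighbour Scn4b held 26 with a GC content of 66.3%. The median over all 32851 promoters of the table was 7 CpG. Scn7a held 3 CpG with a GC content of 54%, and the upstream and downstream starts of Scn2a held 3 and 9. TATAAA occurred in the downstream window of Scn2a and in 13.6% of all promoters, the CCAAT letters in Scn4b and in 37.4%, and the GC box letters in Scn7a and in 35.7%, the last 2 on the opposite strand. The Scn2b window held none of the 3 letter strings, which says only that these letters are not in it.

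The libraries matched their labels in the targeted gene. Smn1, which encodes the survival motor neuron protein, stood between 9.42 and 10.84 on the log2 scale on the 12 WT arrays and between 4.43 and 4.98, below background, on the 12 SMA arrays. By tissue, its level was at least 27.0-fold lower in SMA in MMC, at least 21.9-fold in LMC, 26.4-fold in DRG and 28.1-fold in raphe. Most markers fitted the tissue names: all 6 motor neuron markers were above background on each array of both WT motor columns, the sensory neuron genes Avil and Scn10a had means of 11.30 and 10.24 in WT DRG and were below background on the other WT arrays, and the serotonin synthesis gene Tph2 had a mean of 11.18 in WT raphe. The sensory list was not uniform: of its 7 genes on the array 6 were above background on all 3 WT DRG arrays and Runx3 on none, Ntrk3 was lower in DRG (mean 7.35) than in MMC (10.23), LMC (9.17) and raphe (10.24), and Pou4f1 was high in raphe (10.01) as well as in DRG (10.76). Nor were the motor neuron markers confined to the motor columns: of the 6, 3 were above background on all 3 WT DRG arrays and 2 on all 3 WT raphe arrays. The samples also held glia, and not equally. Over 6 oligodendrocyte markers the mean log2 level of an array lay between 9.39 and 10.08 for WT MMC, 6.68 and 7.83 for WT LMC, 6.81 and 7.37 for WT DRG, and 10.75 and 10.92 for WT raphe. Over 6 astrocyte markers it lay between 9.63 and 10.21 for WT MMC, 8.63 and 8.71 for WT LMC, 5.89 and 6.63 for WT DRG, and 9.99 and 10.54 for WT raphe. The astrocyte gene Gfap was below background on every WT DRG array. The part of glia in the tissue differences below was not tested. Each array had 33.7 to 49.7% of its probes above background. The SMA LMC replicate 2 was lowest, and WT MMC replicate 3, with 38.2%, was the lowest of its tissue. The mean correlation with the other arrays of the tissue was 0.850 for SMA LMC replicate 2, beside 0.924 to 0.939 for the other LMC arrays. For WT MMC replicate 3 it was 0.855, the lowest of its tissue but near WT MMC replicate 1 (0.874). Some of the SMA against WT differences described below are given without SMA LMC replicate 2 or WT MMC replicate 3 too. The others can also depend on these arrays. The 6 arrays of a tissue share 1 chip number in the labels, so tissue and chip cannot be told apart. On each chip the WT and SMA arrays hold separate positions, so position and genotype cannot be told apart either.

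Of the 31 genes, 23 were above background (a detection p under 0.05) on all 3 arrays of at least 1 group, 13 on all 24 arrays and 3 on none. The genes above background everywhere were the sodium channel genes Scn1a, Scn2a, Scn3a, Scn8a, Scn2b and Scn3b and the calcium channel genes Cacna1b, Cacna1d, Cacna1h, Cacna2d1, Cacna2d3, Cacnb4 and Cacng5. Cacna1i, which encodes a T-type pore, and Cacng1 and Cacng6, known from skeletal muscle, were below background on every array. The other 5 genes that were not above background throughout any group were Cacna1a, the P/Q-type pore, on 8 arrays, the retinal pore gene Cacna1f on 11, Cacng7 on 10, Cacng4 on 2 and Cacna2d4 on 1. These 8 genes were not tested. A level below background on these probes does not show that the gene was not expressed.

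Among the WT tissues, 16 of the 23 tested genes passed a test of any difference (limma's F test, adjusted p under 0.05), beside 39.8% of all 10692 genes tested. They were Scn2a, Scn3a, Scn7a and Scn8a, all 3 sodium channel beta genes, Cacna1b, Cacna1c, Cacna1e, Cacna2d1, Cacna2d3, Cacnb2, Cacng2, Cacng3 and Cacng5. Values below are log2 levels of a gene's own probe, so they can be compared between samples and not between genes, and p-values are limma's, two-sided and adjusted over all genes of a comparison. In these bulk samples, fewer cells of a type and less RNA per cell cannot be told apart. Some genes were above background on all arrays of the higher compared group only. They entered the comparison through it, so such a pass alone is no support for a difference. Between pairs of tissues this holds for all calls of Scn7a, Cacna1c, Cacng2 and Cacng8, for Scn4b against raphe, and for Cacnb2 and Cacng3 against DRG.

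**Figure D1:**
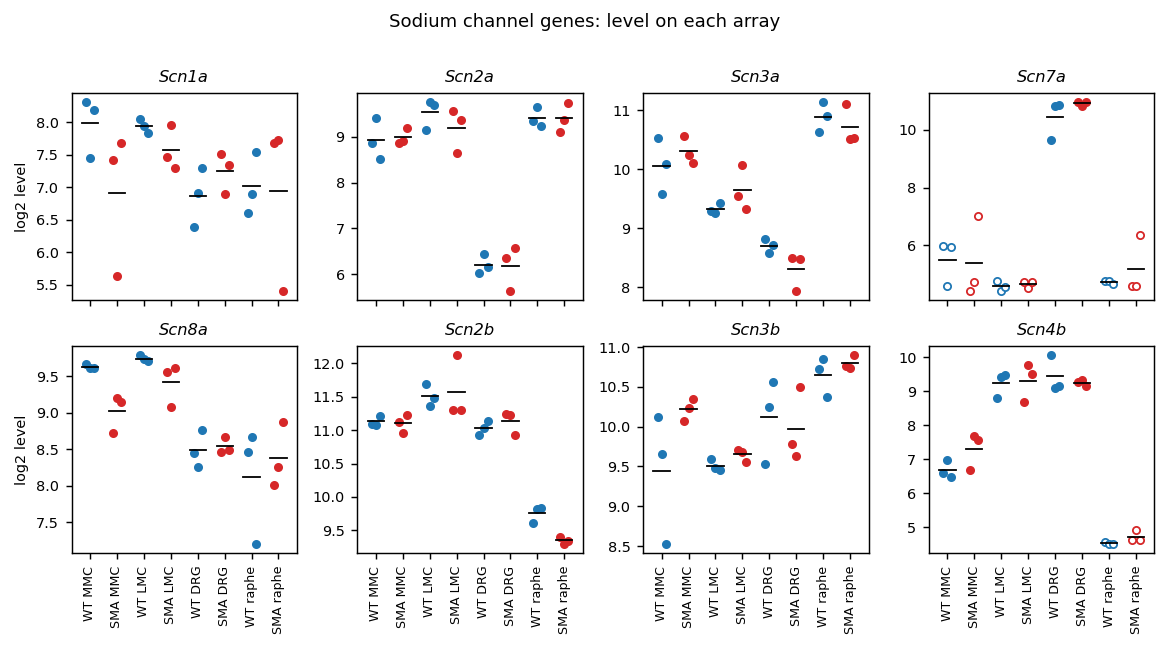
Log2 level (vertical axis) of the 8 sodium channel genes on each of the 24 arrays, by group (horizontal axis). Blue points are WT and red points SMA arrays, black lines are group means, and points are open where the gene was not above background on all 3 arrays of the group. Scn7a is high in DRG (9.63 to 10.96) and mostly below background elsewhere, Scn2a is low in DRG (5.64 to 6.57) and Scn4b is below background in raphe on the probe used.

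Among the sodium channel pore genes, Scn7a and Scn2a set the DRG apart from the central tissues, in opposite directions. Scn7a encodes Nax, a sodium channel relative that responds to sodium concentration more than to voltage. In WT DRG it stood at 9.63, 10.82 and 10.86, in WT MMC at 5.99, 4.59 and 5.94, in WT LMC at 4.77, 4.43 and 4.56 and in WT raphe at 4.76, 4.75 and 4.67. All 3 DRG arrays were above all others, and the gene was below background on every WT LMC and WT raphe array. WT DRG was at least 36.1-fold above WT LMC (adjusted p = 4.57e-08) and at least 41.3-fold above WT raphe (adjusted p = 6.26e-08). Against WT MMC, where 2 of 3 arrays were above background, the difference was 4.93 (SE 0.56, adjusted p = 6.13e-07).

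Scn2a, which encodes the pore Nav1.2 of unmyelinated axons and early axon initial segments, had the opposite order. It stood at 8.85, 9.40 and 8.52 in WT MMC, at 9.15, 9.75 and 9.69 in WT LMC, at 6.02, 6.43 and 6.16 in WT DRG and at 9.33, 9.64 and 9.24 in WT raphe. The DRG arrays lay below all others, while the central tissues overlapped and no pair of them passed. WT DRG was lower than WT LMC (log2 difference -3.33, SE 0.31, adjusted p = 3.39e-08), than WT MMC (-2.72, adjusted p = 7.19e-07) and than WT raphe, which was 3.20 above it (adjusted p = 5.72e-08). The other 4 probes of Scn2a also had their lowest WT mean in DRG.

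Scn3a, the pore Nav1.3 that is abundant in the embryonic and newborn nervous system, was highest in raphe. It stood at 10.64, 11.14 and 10.90 in WT raphe, at 10.53, 9.58 and 10.09 in WT MMC, at 9.29, 9.27 and 9.42 in WT LMC and at 8.81, 8.58 and 8.72 in WT DRG. Raphe lay above MMC by 0.83 (SE 0.25, adjusted p = 0.0246), above LMC by 1.57 (adjusted p = 8.17e-05) and above DRG by 2.19 (adjusted p = 6.3e-07), with no overlap in any of the 3 pairs. MMC and LMC, neighbours in this order, differed by -0.74 without passing (adjusted p = 0.0982), and so did LMC and DRG (adjusted p = 0.0796). The raphe and MMC difference no longer passed under 6 of the 35 alternatives, among them without WT MMC replicate 2 (adjusted p = 0.134) or 3 (0.0572) and without WT raphe replicate 2 (0.107) or 3 (0.0695). Both other Scn3a probes were also highest in WT raphe.

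Scn8a, the pore Nav1.6 of mature nodes of Ranvier and axon initial segments, was higher in both motor columns than in DRG or raphe. Its 3 values were 9.66, 9.61 and 9.61 in WT MMC and 9.79, 9.73 and 9.71 in WT LMC, against 8.44, 8.26 and 8.76 in WT DRG and 8.46, 8.67 and 7.20 in WT raphe. The columns lay above all DRG and raphe arrays. WT DRG was below WT LMC (log2 difference -1.26, SE 0.31, adjusted p = 0.00426), and WT raphe below WT MMC (-1.51, adjusted p = 0.00158) and WT LMC (-1.63, adjusted p = 0.000443). DRG against MMC also passed (-1.14, adjusted p = 0.00987), but not on the mean of all detected probes (adjusted p = 0.115) or without WT DRG replicate 2 (0.0526). A second Scn8a probe had WT means of 6.24 for MMC, 6.61 for LMC, 6.09 for DRG and 4.88 for raphe. Scn1a, the pore Nav1.1, had WT means of 7.98 for MMC, 7.94 for LMC, 6.87 for DRG and 7.02 for raphe, and did not pass (adjusted p = 0.165).

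The sodium channel beta genes each had a pattern of their own, and on the probes used the neighbours Scn2b and Scn4b were both lowest in raphe. Scn4b encodes the beta4 subunit, known for its part in the resurgent current of fast-firing neurons. It stood at 6.59, 6.96 and 6.47 in WT MMC, at 8.79, 9.43 and 9.47 in WT LMC, at 10.05, 9.09 and 9.14 in WT DRG and at 4.56, 4.52 and 4.52 in WT raphe. LMC lay above MMC on every array, by 2.55 (SE 0.36, adjusted p = 0.00026), and the level in raphe was below background on all 3 arrays. This was the 1 gene of the 20 tested that passed between WT LMC and WT MMC, beside 3.42% of all genes in either direction and 1.88% in this one. WT raphe was at least 20.5-fold below WT DRG (adjusted p = 5.86e-10) and at least 17.9-fold below WT LMC (adjusted p = 3.11e-09), and LMC and DRG did not differ beyond their spread (adjusted p = 0.733). Against MMC, raphe was at least 3.04-fold lower (adjusted p = 0.000267), a call lost with the deposited normalized values (adjusted p = 0.0649).

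The second Scn4b probe had WT means of 6.81 for MMC, 6.38 for LMC, 5.58 for DRG and 5.64 for raphe, all above background. It does not repeat the higher level in LMC and DRG, and its lowest mean was in DRG, close to that of raphe. The Scn4b pattern, with its minimum in raphe, thus holds for 1 of the 2 probes. On the probe used, the SMA arrays of the same chips had the LMC above the MMC too, with 6.69, 7.67 and 7.55 in SMA MMC and 8.67, 9.76 and 9.50 in SMA LMC, groups that do not overlap.

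Scn2b, the beta2 subunit that is disulfide-linked to the pore, stood at 9.61, 9.81 and 9.84 in WT raphe. It stood at 11.09, 11.08 and 11.22 in WT MMC, at 11.69, 11.36 and 11.48 in WT LMC and at 10.93, 11.04 and 11.14 in WT DRG. Raphe was below every other array, and the differences of raphe were -1.76 against LMC (SE 0.18, adjusted p = 1.73e-07), -1.38 against MMC (adjusted p = 9.77e-06) and -1.28 against DRG (adjusted p = 8.54e-06). The other 2 Scn2b probes also had their lowest WT mean in raphe. Scn3b, the beta3 subunit prominent in the immature brain, was in contrast highest in raphe, at 10.73, 10.84 and 10.38, against 10.13, 9.66 and 8.53 in WT MMC and 9.60, 9.48 and 9.45 in WT LMC. Raphe lay above LMC by 1.14 (SE 0.30, adjusted p = 0.00737) and above MMC by 1.21 (adjusted p = 0.00797), and the latter did not pass with only the groups compared in the fit (adjusted p = 0.0612) or without WT MMC replicate 3 (adjusted p = 0.0652). With array medians equalized, the raphe and LMC difference had an adjusted p of 0.0754. WT DRG, with 9.54, 10.25 and 10.56, overlapped its neighbours in this order. Of the 3 other Scn3b probes, 2 were highest in WT raphe and 1 in WT DRG.

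**Figure D2:**
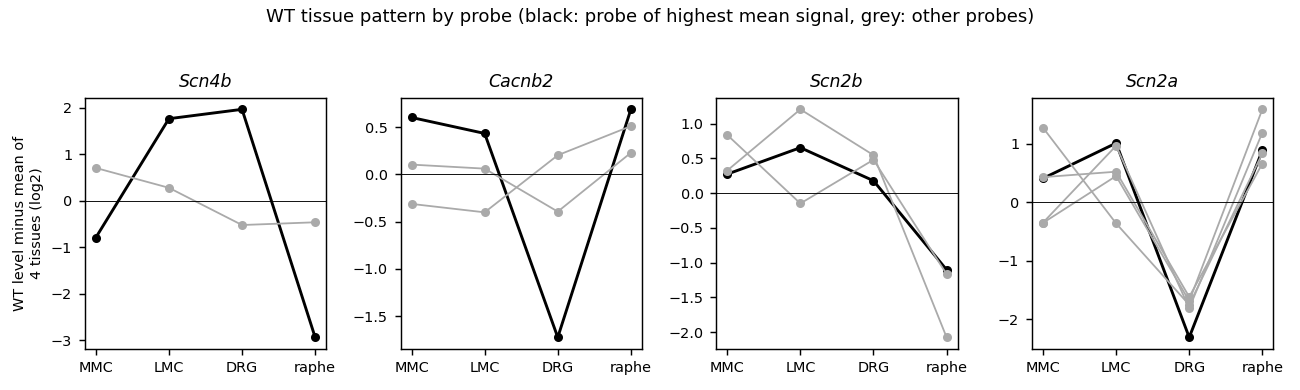
WT level minus the mean of the 4 tissues (log2, vertical axis) in MMC, LMC, DRG and raphe, for each probe above background on at least 3 arrays. Black lines are the probes used and grey lines the other probes. All Scn2a probes are lowest in DRG and all Scn2b probes lowest in raphe, while the Scn4b and Cacnb2 probes differ among themselves.

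Among the calcium channel pore genes, Cacna1b was, on the probes used, the 1 with the clearest tissue order. It encodes the N-type pore, which supplies calcium for transmitter release at many synapses of sensory and sympathetic neurons. Its levels were 8.41, 9.05 and 8.99 in WT DRG, 7.67, 7.57 and 7.97 in WT raphe, 7.30, 5.97 and 6.75 in WT MMC and 6.24, 6.24 and 5.89 in WT LMC. DRG lay above all other WT arrays. Its excess was 2.70 over LMC (SE 0.58, adjusted p = 0.00148) and 2.14 over MMC (adjusted p = 0.0106, and 0.0569 without WT MMC replicate 2), and raphe, second in the order, did not pass against DRG (adjusted p = 0.217). Raphe exceeded LMC by 1.62 (adjusted p = 0.0393), a difference that did not pass under 10 of the 35 alternatives, among them the loss of any 1 of the 6 arrays compared (adjusted p from 0.0703 to 0.113). A second Cacna1b probe had the same order of WT tissues.

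Cacna1c, the L-type pore Cav1.2, had a low level throughout. It was above background on every WT DRG array (5.74, 5.61 and 6.66) and every WT raphe array (5.53, 5.86 and 5.37), on 1 of 3 WT LMC arrays (5.77, 4.98 and 4.85) and on 0 of 3 WT MMC arrays (4.47, 5.03 and 4.66). WT DRG was at least 1.64-fold above WT MMC (adjusted p = 0.00863), with all 3 arrays higher. The gene entered this comparison only through the DRG arrays, the higher group, so the pass alone is no support for a difference. The call did not hold on the mean of detected probes (adjusted p = 0.235) or without WT DRG replicate 3 (0.0752). Cacna1e, the R-type pore Cav2.3, was lower in WT DRG (5.59, 5.16 and 5.11) than in WT LMC (6.62, 6.42 and 6.61), with WT MMC (5.62, 5.94 and 6.25) and WT raphe (6.23, 5.36 and 5.30) between them. The difference was -1.27 (SE 0.36, adjusted p = 0.0125), and did not pass without WT DRG replicate 2 (0.0506) or 3 (0.0558).

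The other tested pore genes did not pass among the WT tissues. Cacna1d, the L-type pore Cav1.3, stood at 7.60, 6.94 and 7.14 in WT MMC, at 7.81, 7.19 and 7.03 in WT LMC, at 6.76, 5.73 and 5.91 in WT DRG and at 7.07, 7.01 and 5.61 in WT raphe (adjusted p = 0.12). Cacna1h, the T-type pore Cav3.2 known in sensory neurons, ranged from 6.53 in MMC to 7.63 in DRG (adjusted p = 0.384), and its arrays spread widely, from 5.36 to 7.83 within WT MMC. Cacna1g, the T-type pore Cav3.1, was on the probe used above background on all 3 arrays in LMC alone among the WT tissues, at 5.95, 5.89 and 5.43 (adjusted p = 0.163). It stood at 5.59, 4.78 and 6.42 in WT MMC, at 5.004, 4.58 and 4.76 in WT DRG and at 4.88, 5.77 and 5.05 in WT raphe. A pair of other Cacna1g probes were above background on all 3 WT raphe arrays, with means of 5.53 and 5.499, and on 2 and 1 of the WT LMC arrays.

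**Figure D3:**
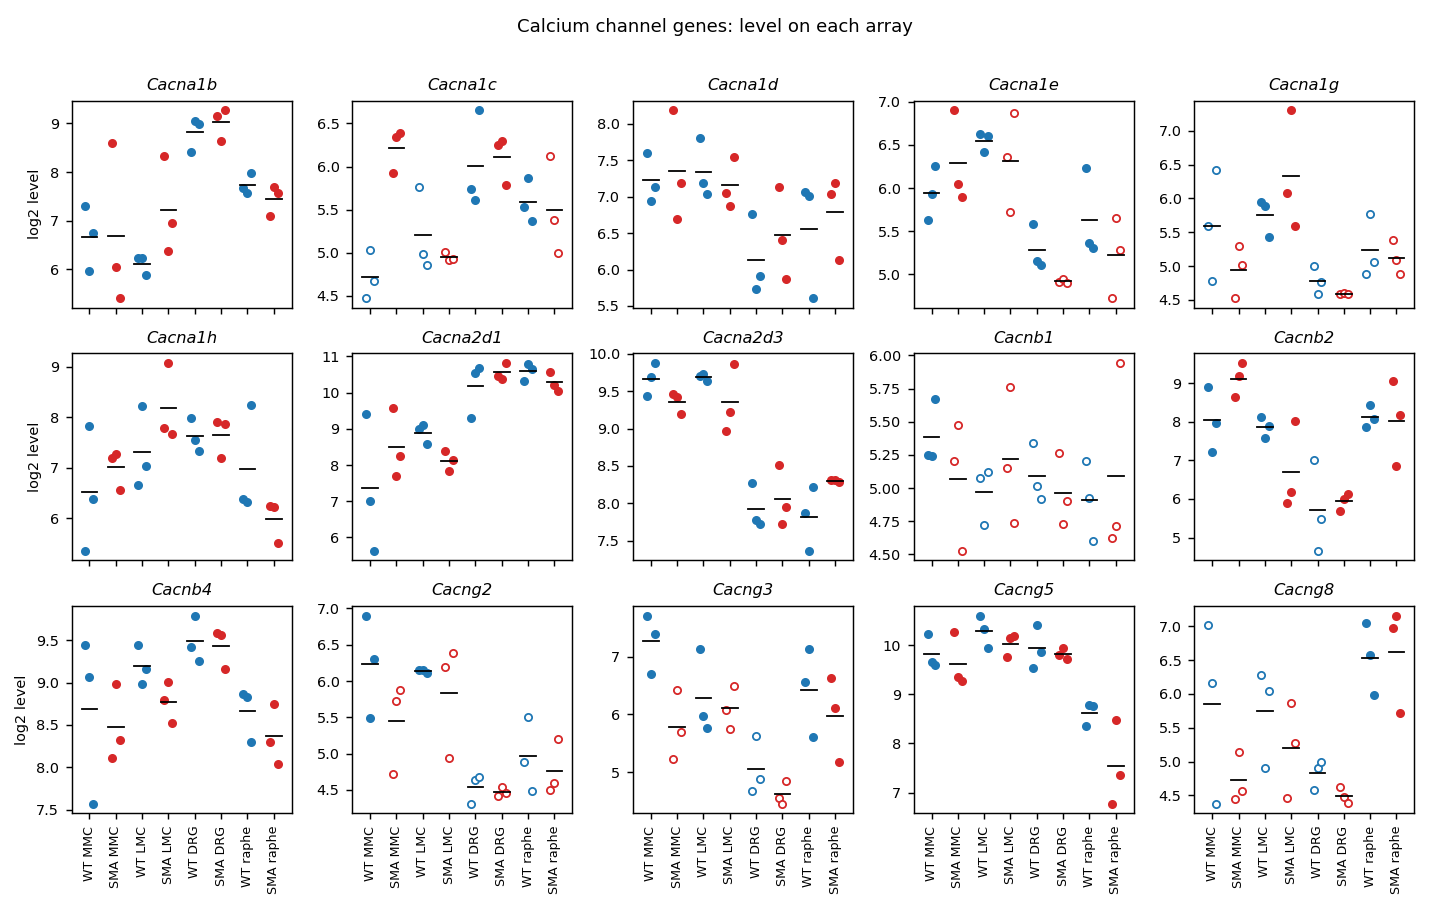
Log2 level (vertical axis) of the 15 calcium channel genes above background in at least 1 group, on each of the 24 arrays, by group (horizontal axis). Blue points are WT and red points SMA arrays, black lines are group means, and points are open where the gene was not above background on all 3 arrays. Cacna1c is open in WT MMC (4.47 to 5.03) and filled in SMA MMC (5.92 to 6.39), and the motor columns are low in Cacna2d1 and high in Cacna2d3.

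The alpha2delta genes Cacna2d1 and Cacna2d3, whose products bring the channel to the membrane, had their highest WT means in different tissues, raphe and DRG for the first and the motor columns for the other. Cacna2d1, a binding site of gabapentin, stood at 10.32, 10.79 and 10.65 in WT raphe, at 9.30, 10.53 and 10.69 in WT DRG, at 8.99, 9.10 and 8.57 in WT LMC and at 9.41, 7.02 and 5.63 in WT MMC. The MMC arrays spread over nearly the whole range of the gene. Raphe exceeded MMC by 3.24 (SE 0.59, adjusted p = 0.000626) and DRG exceeded MMC by 2.82 (adjusted p = 0.00128, and 0.0561 with only the groups compared in the fit), with overlap between DRG and MMC through 1 MMC array. Raphe also exceeded LMC by 1.70 (adjusted p = 0.0332), which did not pass under 8 of the 35 alternatives, among them the loss of any 1 of the 6 arrays compared (adjusted p from 0.0532 to 0.1). A second Cacna2d1 probe had WT means of 6.96 for MMC, 5.89 for LMC, 8.25 for DRG and 7.39 for raphe, again higher in DRG and raphe than in the motor columns but with both orders within these pairs turned.

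Cacna2d3 stood at 9.43, 9.69 and 9.88 in WT MMC and 9.70, 9.73 and 9.63 in WT LMC, against 8.28, 7.78 and 7.72 in WT DRG and 7.88, 7.36 and 8.22 in WT raphe. Every motor column array lay above every DRG and raphe array. The differences were -1.76 for DRG against LMC (SE 0.28, adjusted p = 4.87e-05), -1.74 for DRG against MMC (adjusted p = 6.03e-05), -1.87 for raphe against LMC (adjusted p = 3.18e-05) and -1.85 for raphe against MMC (adjusted p = 7.15e-05). Within each pair of neighbours the levels did not differ beyond their spread, with an adjusted p of 0.979 for LMC and MMC and 0.844 for DRG and raphe. Cacna2d3 has 1 probe on the array.

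The cytoplasmic beta subunit genes were less clear. Cacnb2 stood at 8.91, 7.22 and 7.98 in WT MMC, at 8.13, 7.58 and 7.90 in WT LMC, at 6.999, 4.65 and 5.47 in WT DRG and at 7.85, 8.44 and 8.07 in WT raphe. The DRG arrays lay below all others, with a difference of -2.33 from MMC (SE 0.60, adjusted p = 0.00748) that did not pass without WT DRG replicate 2 (0.0669). A second Cacnb2 probe, annotated to another transcript record, had WT means of 7.24 for MMC, 7.15 for LMC, 7.76 for DRG and 8.07 for raphe, with a DRG difference of the opposite sign, so no tissue order is given for the gene. Cacnb4 stood at 9.44, 9.06 and 7.57 in WT MMC, at 9.45, 8.98 and 9.16 in WT LMC, at 9.41, 9.79 and 9.25 in WT DRG and at 8.86, 8.82 and 8.29 in WT raphe, and did not pass (adjusted p = 0.153). Cacnb1, the beta subunit of skeletal muscle that also occurs in brain, was above background on all 3 arrays of WT MMC (5.25, 5.24 and 5.67) and of no other group (adjusted p = 0.584).

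The gamma genes that encode TARPs had no common order. Cacng2, which encodes stargazin, stood at 6.90, 5.49 and 6.31 in WT MMC and at 6.15, 6.15 and 6.12 in WT LMC and was below background on all 3 WT DRG arrays, at 4.31, 4.64 and 4.67, and on 2 of 3 WT raphe arrays, at 4.89, 5.51 and 4.49. WT DRG was at least 2.29-fold below WT MMC (adjusted p = 0.00303) and at least 2.14-fold below WT LMC (adjusted p = 0.00424). Cacng3 stood at 7.71, 6.70 and 7.40 in WT MMC, against 7.12, 5.98 and 5.77 in WT LMC, 6.56, 7.12 and 5.61 in WT raphe and 4.68, 5.62 and 4.89 in WT DRG. DRG was below MMC (log2 difference -2.20, SE 0.47, adjusted p = 0.00138), while MMC and raphe did not differ beyond their spread (adjusted p = 0.216). The second Cacng3 probe was also lowest in DRG, with a mean of 4.81, and had means of 6.59 in MMC and 6.63 in LMC. Cacng5 stood at 8.35, 8.78 and 8.77 in WT raphe, below every array of WT MMC (10.23, 9.66 and 9.60), WT LMC (10.61, 10.33 and 9.94) and WT DRG (9.55, 10.42 and 9.86). Its raphe difference was -1.66 against LMC (SE 0.34, adjusted p = 0.00107), and both other Cacng5 probes were lowest in raphe too. Cacng8 was above background on all 3 arrays in WT raphe alone among the WT tissues (7.05, 6.57 and 5.98). It stood at 7.03, 6.16 and 4.38 in WT MMC, at 6.27, 4.91 and 6.05 in WT LMC and at 4.58, 4.91 and 4.998 in WT DRG. Raphe exceeded DRG by 1.71 (adjusted p = 0.0228), a call lost without replicate 1 or 2 of WT DRG (0.0893 and 0.0529) or of WT raphe (0.103 and 0.0602).

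By pair of tissues, DRG against MMC gave 5 genes higher and 7 lower of 21 tested, beside 20% of all genes tested (10.5% higher and 9.57% lower). Raphe against MMC gave 3 higher and 6 lower of 21, beside 19.3% (9.51% and 9.79%). DRG against LMC gave 2 higher and 6 lower of 21, beside 23.4% (10% and 13.4%). Raphe against LMC gave 4 higher and 6 lower of 21, beside 30.7% (12.1% and 18.6%). Raphe against DRG gave 5 higher and 4 lower of 20, beside 20.1% (8.83% and 11.3%). With array medians equalized in place of quantile normalization, raphe against LMC gave 1 higher and 7 lower. The 6 pairs hold 49 calls in 17 genes, of which 28 were kept under all 35 alternatives and 21 were lost under at least 1. In the SMA arrays, which the WT tests did not use but which share the chips, 48 of the 49 differences had the same sign and in 42 the SMA groups did not overlap. The difference of opposite sign was Cacna1c in DRG against MMC, with 1.28 in WT and -0.11 in SMA arrays.

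The question of the series is what differs between SMA and WT mice in each tissue. In MMC, 1 of the 20 tested channel genes passed, with the higher level in SMA, beside 1.28% of all 8742 genes tested (0.675% higher), and in LMC, DRG and raphe 0 of 19, 18 and 18 passed, beside 0.0221%, 0.0101% and 0.244%. At an unadjusted p under 0.05 there were 3 channel genes in MMC (14.7% of all genes), 0 in LMC (6.82%), 0 in DRG (1.41%) and 2 in raphe (6.91%). SMA and WT arrays did not overlap in 3 genes in MMC (beside 14.6% of all genes), 3 in LMC (10.2%), 2 in DRG (8.61%) and 3 in raphe (14.5%). The median log2 difference of the tested channel genes came to 0.04 for MMC, -0.23 for LMC, 0.07 for DRG and -0.14 for raphe, beside 0.06, 0.03, -0.03 and -0.02 over all genes tested. Leaving out 1 array turned the sign of the channel gene median in MMC and DRG and took that of LMC to -0.065 (without SMA LMC replicate 2). Their 95% confidence intervals are wide, with a median SE of 0.36 in MMC, so a missed threshold does not show that levels were alike.

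**Figure D4:**
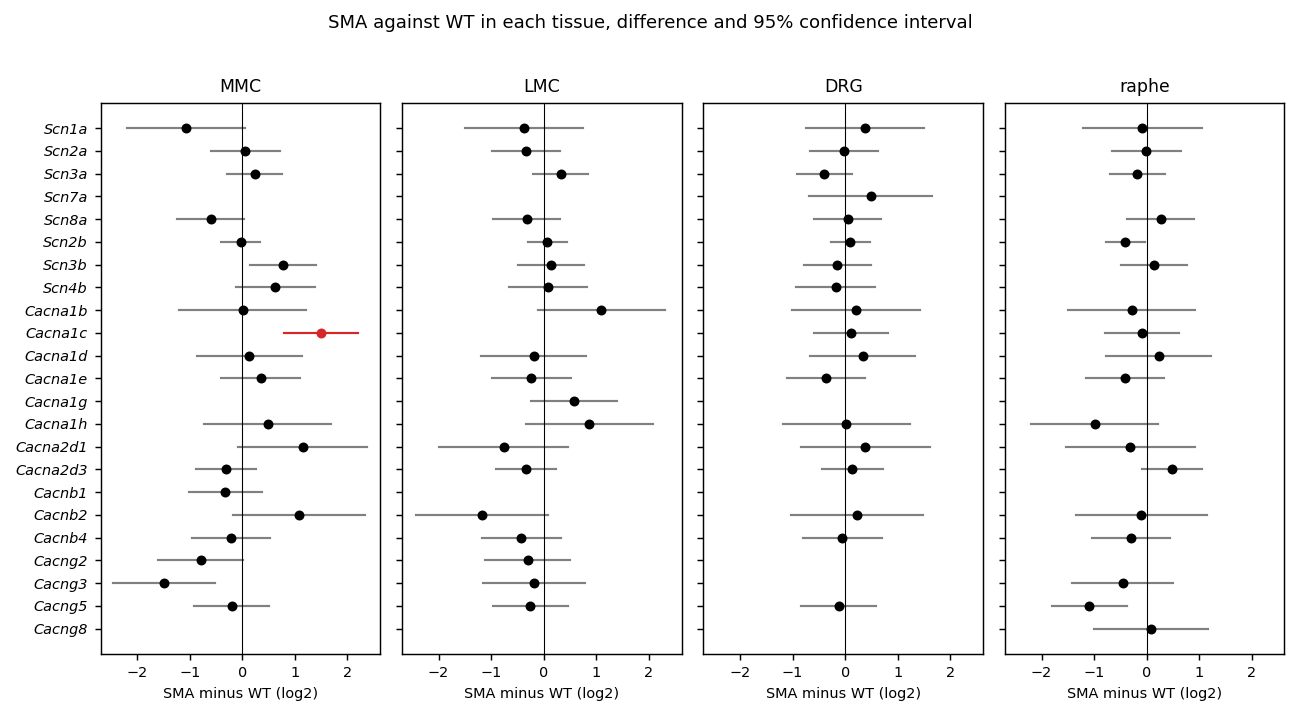
Difference between SMA and WT (log2, horizontal axis) for the tested channel genes (vertical axis) in MMC, LMC, DRG and raphe. Points are limma's fitted differences, lines their 95% confidence intervals, red marks the gene that passed, and genes not tested in a tissue have no point. Cacna1c in MMC, at 1.50, is the 1 red point, and most other intervals include 0.

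The gene that passed was Cacna1c, the L-type pore, in MMC. It stood at 4.47, 5.03 and 4.66 on the WT arrays, below background on all 3, and at 5.92, 6.34 and 6.39 on the SMA arrays, above background on all 3. Every SMA array lay above every WT array. The gene entered this test only through the SMA arrays, the higher group, so the pass alone is no support for a difference. The SMA level was at least 1.91-fold higher (measured difference 1.50, SE 0.34, 95% interval 0.80 to 2.20, adjusted p = 0.0272). In LMC the SMA arrays stood at 5.01, 4.92 and 4.92, in DRG at 6.25, 6.30 and 5.79 and in raphe at 6.12, 5.38 and 4.99, with differences from WT of -0.25, 0.11 and -0.09. The MMC effect exceeded the LMC effect by 1.75 (SE 0.48), which did not pass after adjustment (adjusted p = 0.307), nor did the test of any difference of the SMA effect among the tissues (adjusted p = 0.402).

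The Cacna1c result rests on 1 of 7 probes. Of the 4 other probes above background on at least 3 arrays, 2 had the same sign in MMC, and their differences ran from -0.23 to 0.68. On the mean of the detected probes the adjusted p was 0.357, and the call was also lost without 1 of WT MMC replicate 1 (adjusted p = 0.0769), WT MMC replicate 3 (0.0579), SMA MMC replicate 2 (0.053) or SMA MMC replicate 3 (0.0695). It was lost as well with array medians equalized, with no detection filter, with a replicate block, with array weights and in a fit to the MMC arrays alone, where its adjusted p was between 0.0505 and 0.21. The glial and motor neuron markers did not pass between SMA and WT in MMC. The astrocyte list had a median difference of 0.13 over 6 markers, the oligodendrocyte list -0.05 over 5 and the motor neuron list 0.06 over 6. Among 4 microglial and macrophage markers tested the median was 0.42, and among 2 vascular markers -0.44. The part of these cells in the Cacna1c difference was not tested.

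**Figure D5:**
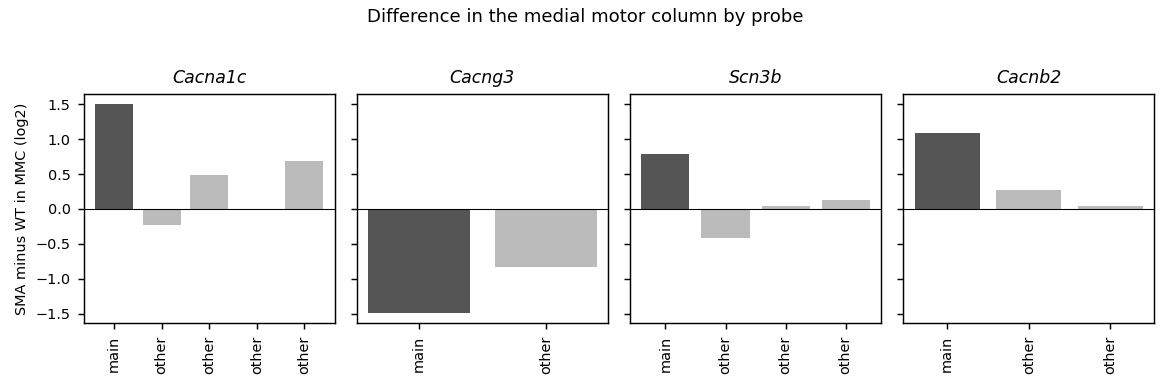
Difference between SMA and WT group means in MMC (log2, vertical axis) for each probe of 4 genes, with the probe used (dark, main) beside the other probes above background on at least 3 arrays (light, other). The Cacna1c probes run from -0.23 to 1.50, both Cacng3 probes are below 0, and the Scn3b and Cacnb2 differences of the main probe are larger than those of their other probes.

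The other calcium channel genes in MMC did not pass. On the probes used the 5 tested pore genes had differences from 0.01 in Cacna1b to the 1.50 of Cacna1c. Other probes of Cacna1b, Cacna1c, Cacna1d and Cacna1h gave values down to -0.61, -0.23, -0.28 and -0.20. Of the pore genes not tested there, Cacna1g gave -0.65 (other probes -0.77 to -0.50) and Cacna1f -0.17, while Cacna1a gave 0.21 and Cacna1i 0.05. The 3 tested gamma genes had differences below 0. Of these, Cacng2 and Cacng3 entered this test only through the WT arrays, the higher group, so their shared sign is no support for a difference. Cacng3 stood at 7.71, 6.70 and 7.40 in WT and at 5.23, 6.42 and 5.70 in SMA MMC, where it was above background on 2 of 3 arrays. The groups did not overlap, and the difference was -1.49 (SE 0.47, adjusted p = 0.121), and the second probe gave -0.83. Cacng2 differed by -0.79 (adjusted p = 0.355) and Cacng5 by -0.20 (adjusted p = 0.842). Cacng8 was above background on 2 of 3 WT MMC arrays (7.03, 6.16 and 4.38) and on none in SMA MMC (4.45, 5.14 and 4.57), and so was not tested there. It passed in that comparison under 1 alternative, with WT MMC replicate 3 (its WT array below background) and SMA LMC replicate 2 left out, where the filter admits it through the higher group, so that pass is no support.

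Cacna2d1 differed by 1.15 in MMC (WT 9.41, 7.02 and 5.63, SMA 9.58, 7.70 and 8.24, adjusted p = 0.375), and the groups overlapped. Without WT MMC replicate 1, the highest of the WT arrays, the difference was 2.18 and passed (adjusted p = 0.0247), while Cacna1c did not, and without WT MMC replicate 3, the lowest, it was 0.29 (adjusted p = 0.842). The second Cacna2d1 probe gave -1.21 in the same tissue. Cacnb2 differed by 1.08 (adjusted p = 0.416).

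The sodium channel genes in MMC did not pass either. Scn3b, with the smallest p after Cacna1c and Cacng3, stood at 10.13, 9.66 and 8.53 in WT and at 10.07, 10.24 and 10.35 in SMA MMC, with a difference of 0.78 (SE 0.30, adjusted p = 0.225). The groups overlapped, and without WT MMC replicate 3, the lowest array, the difference was 0.33 (adjusted p = 0.593). The other Scn3b probes gave differences from -0.42 to 0.13. Scn8a stood at 9.66, 9.61 and 9.61 in WT and at 8.72, 9.21 and 9.15 in SMA MMC, without overlap, and its difference was -0.60 (SE 0.31, adjusted p = 0.372). The second Scn8a probe gave -0.34. Scn1a differed by -1.07 (SE 0.54, adjusted p = 0.368), with its lowest SMA array at 5.64 and the others at 7.41 and 7.68, and was -0.43 without the lowest (adjusted p = 0.75).

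In LMC the serotonin synthesis gene Tph2 stood at 6.14, 4.72 and 5.66 in WT and at 6.67, 6.73 and 7.69 in SMA, without passing (difference 1.53, adjusted p = 0.422), while Slc18a2, the other serotonergic marker tested there, differed by -0.75. Of the 6 motor neuron markers 3 lay above 0 and 3 below (median 0.04), with the lowest values in Prph (-1.46) and Slc18a3 (-1.21), and Prph stood at 11.74, 11.74 and 11.47 in WT and at 11.61, 7.44 and 11.51 in SMA LMC, so that without SMA LMC replicate 2 its difference was -0.088 (and that of Slc18a3 -0.22). None of these markers passed, and their part in the LMC differences was not tested. The channel genes of smallest p in this tissue were Cacnb2, Cacna1b and Cacna1h. Cacnb2 stood at 8.13, 7.58 and 7.90 in WT and at 5.89, 6.19 and 8.01 in SMA LMC, so that 2 SMA arrays were low and 1 was within the WT range. Its difference was -1.17 (SE 0.60, adjusted p = 0.71), and 0.30 by the second probe. Cacna1b stood at 6.24, 6.24 and 5.89 in WT and at 8.32, 6.37 and 6.95 in SMA LMC, all 3 higher, with a difference of 1.09 (SE 0.58, adjusted p = 0.71), and a second probe of the same transcript gave 1.11, while another probe gave -0.14. Without SMA LMC replicate 1, the highest, the difference was 0.54 (adjusted p = 0.735). Cacna1h stood at 6.66, 8.23 and 7.04 in WT and at 7.79, 9.08 and 7.67 in SMA LMC, which overlap, with a difference of 0.87 (adjusted p = 0.752) that was 0.42 without SMA LMC replicate 2. Its other 2 probes gave 0.32 and -0.37. On the probes used, the LMC differences of the sodium channel genes ran from -0.37 in Scn1a to 0.33 in Scn3a (0.11 without SMA LMC replicate 2). The other 2 Scn3a probes gave -0.996 and -0.29, and the other Scn2a probes ran from -1.11 to 0.96. Scn8a was lower on every SMA array (9.56, 9.08 and 9.61 against 9.79, 9.73 and 9.71), by -0.32 (adjusted p = 0.827), or -0.16 without SMA LMC replicate 2. The second Scn8a probe gave 0.19, of opposite sign.

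In DRG the differences were the smallest in range of the 4 tissues, from -0.40 in Scn3a to 0.49 in Scn7a. Scn3a stood at 8.81, 8.58 and 8.72 in WT and at 8.50, 7.94 and 8.47 in SMA DRG, all 3 lower, with a difference of -0.40 (SE 0.25, adjusted p = 1), and the other 2 Scn3a probes each gave 0.34. Cacna1e stood at 5.59, 5.16 and 5.11 in WT DRG and at 4.91, 4.94 and 4.90, below background, in SMA DRG, at least 1.18-fold lower (adjusted p = 1). Scn7a stood at 10.96, 10.84 and 10.96 in SMA DRG, beside 9.63, 10.82 and 10.86 in WT DRG, and its difference of 0.49 (adjusted p = 1) was 0.085 without the lowest WT array.

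In raphe, 4 of 4 tested serotonergic markers lay above 0 (median 0.63) and 6 of 6 astrocyte markers below 0 (median -0.25), none passing, and their part in the raphe differences was not tested. Cacng5 had the smallest p of the channel genes there. It stood at 8.35, 8.78 and 8.77 in WT and at 6.77, 8.47 and 7.36 in SMA raphe, where the highest SMA array lay above the lowest WT array. The difference was -1.09 (SE 0.34, unadjusted p = 0.0043, adjusted p = 0.323), and without SMA raphe replicate 2 it was -1.56 and passed (adjusted p = 0.0315). The other 2 Cacng5 probes gave 0.17 and 0.40. Scn2b stood at 9.61, 9.81 and 9.84 in WT and at 9.40, 9.30 and 9.35 in SMA raphe, all 3 lower, with a difference of -0.40 (SE 0.18, adjusted p = 0.662), and its other 2 probes gave -0.48 and 0.69. Cacna2d3 stood at 7.88, 7.36 and 8.22 in WT and at 8.31, 8.31 and 8.28 in SMA raphe, all 3 higher, with a difference of 0.48 (adjusted p = 0.819). Cacna1h was lower on every SMA raphe array (6.24, 6.23 and 5.52 against 6.38, 6.32 and 8.24), by -0.98 (adjusted p = 0.822), and by -0.35 without the highest WT array.

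Over the 4 tissues together, 0 of the 23 channel genes passed, beside 0.0536% of all 11189 genes, and 2 had an unadjusted p under 0.05, beside 6.24%. Those 2 were the gamma genes Cacng3, with a mean difference of -0.64 (SE 0.23, adjusted p = 0.658), and Cacng5, with -0.42 (SE 0.17, adjusted p = 0.743), followed by Cacna1c with 0.32 (adjusted p = 0.811). On the probes used the 4 tested gamma genes had values from -0.64 to -0.34, with a median of -0.45. Cacng2 entered this test only through WT MMC and WT LMC, both above their SMA groups, so its sign is no support for a difference. The second Cacng3 probe gave -0.12 and the other Cacng5 probes -0.18 and 0.02, and Cacng2 and Cacng8 have 1 probe each. Of the other families, the 5 sodium channel pores ran from -0.28 in Scn1a to 0.22 in Scn7a and the 6 calcium channel pores from -0.17 to 0.32. The difference between the MMC and LMC effects passed for 0 of 21 channel genes (beside 0.0207% of all genes), and any difference of the SMA effect among tissues for 0 of 23 (beside 0.0626%). At an unadjusted p under 0.05 these were 4 genes (beside 9.57%), among them Cacnb2 with 2.25 and Cacna2d1 with 1.92, and 1 gene (beside 6.96%), Cacna1c. The second probe of Cacnb2 gave -0.023 for the same quantity and that of Cacna2d1 gave -1.28. With 1 array left out, the Cacna2d1 value on the probe used ran from 1.05 to 2.95. Of 6 pan-neuronal markers, Nefl, a neurofilament gene, passed in the mean over tissues, with a difference of -0.59 (adjusted p = 0.011), and its part in the channel gene differences was not tested.

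The genes whose products bind or regulate these channels were read in the same fits. Of the 16 sodium channel partners (ankyrins, spectrins, FGF homologous factors, adhesion molecules and the leak channel group of Nalcn), 14 were tested in MMC and 0 passed in any SMA against WT comparison (at an unadjusted p under 0.05 MMC had 2, LMC 1, DRG 0 and raphe 3, beside 14.7%, 6.82%, 1.41% and 6.91% of all genes). Unc80, a subunit of the Nalcn leak channel, had the smallest p of them in MMC, at 7.67, 7.60 and 8.94 in WT and at 7.20, 6.67 and 5.43 in SMA MMC, with a difference of -1.63 (SE 0.59, adjusted p = 0.182). Fgf12, an intracellular factor that binds sodium channel tails, had it in raphe, at 8.54, 8.13 and 7.88 in WT and at 6.24, 7.13 and 7.50 in SMA raphe, with a difference of -1.23 (SE 0.33, adjusted p = 0.186). In both cases all 3 SMA arrays were below the WT arrays. In LMC the smallest p was that of Ank3, ankyrin G of the axon initial segment, at 9.998, 9.82 and 9.90 in WT and at 9.86, 6.47 and 10.07 in SMA LMC, with a difference of -1.11 (adjusted p = 0.707) that was 0.059 without SMA LMC replicate 2.

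Of the 28 genes listed for calcium channel regulation and calcium handling, 25 were on the array and 19 were tested in MMC, where 1 passed, beside 1.28% of all genes. It was Gem, a small GTP-binding protein of the RGK group that binds the beta subunit and inhibits voltage-gated calcium channels. Gem stood at 4.79, 4.73 and 4.74, below background, on the WT MMC arrays and at 6.27, 5.83 and 7.31, above background, on the SMA MMC arrays. Its SMA level was at least 2.27-fold higher (measured difference 1.72, SE 0.32, adjusted p = 0.0121). Like Cacna1c, Gem entered this test only through the SMA arrays, the higher group, so the pass alone is no support for a difference. In LMC, where the WT arrays stood at 5.90, 6.08 and 5.65 and the SMA arrays at 6.48, 5.53 and 5.63, the group means were alike at 5.88, and the excess of the MMC effect, 1.71 (SE 0.46), did not pass (adjusted p = 0.307). No gene of this list passed in LMC, DRG or raphe, with 1, 0 and 1 at an unadjusted p under 0.05 (beside 6.82%, 1.41% and 6.91% of all genes). In LMC Itpr2, an inositol trisphosphate receptor, stood at 7.19, 6.95 and 6.25 in WT and at 5.86, 5.16 and 4.62 in SMA, all 3 lower, with a difference of -1.58 (SE 0.67, adjusted p = 0.707). In DRG the smallest p were those of Camk2b, with a difference of -0.44, and Calm2, with 0.18 (adjusted p = 1 for both). In raphe Ryr2, a calcium release channel of internal stores, stood at 5.85, 7.24 and 5.85 in WT and 7.48, 7.25 and 7.73 in SMA, with a difference of 1.17 (SE 0.37, adjusted p = 0.323).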

How the data were processed

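The authors deposited, per the file headers, the intensity of 45281 probes on 24 Cy3 bead arrays, each with its detection p-value. Signals below 0 made up 23.9 to 38.5% of an array, so a background had been subtracted. A second deposited table holds log2 values, normalized in a way that the sources used here do not give, and served as an alternative. The submitters' processing notes name GenomeStudio. Per the labels' protocols, cDNA was amplified with a system for picogram amounts of RNA, and the number of arrays limits the precision.

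Signals were corrected and normalized here with limma 3.58.1 in R 4.3.3 (normexp from the detection p-values, offset 16, quantile, log2). The platform annotation gave 34885 probes 1 symbol, 18 several and 10378 none, and 34807 were matched to the GRCm38.p6 gene table, which changed 0 symbols. Genes entered a comparison if detected (detection p under 0.05) on all 3 arrays of a group in it. The linear model had 8 group means over the 24 arrays (16 residual degrees of freedom), with moderated statistics, a mean-variance trend and Benjamini-Hochberg adjustment over all genes tested, at a threshold of 0.05. Where a group was below background on all 3 arrays, "at least" gives the brighter group's mean over the dim group's mean of, per array, the higher of its own value and the lowest signal of a probe above background. The design text names biological replicates and does not say whether they are separate animals.

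Genes named follow this rule: those that passed an SMA against WT comparison, the 3 of smallest p in each, those of smallest p among WT tissues, and the partners that passed or had the smallest p; Scn1a, Scn8a, Cacng2, Cacng5, Cacng8, Cacnb2, Cacna2d1 and Unc80 in MMC, Scn8a in LMC, Cacna1h in raphe, and Nefl and Tph2 were added after their values were seen. The genes, the marker and partner lists and the tests were chosen with earlier results of these data known. Procedures were tested on simulated data. Replicate numbers were not taken as pairs: deviations of same-numbered SMA and WT arrays of a tissue correlated between -0.09 and 0.32, and in no tissue above 0.1 in every pair.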

Additional observations from a re-analysis of the deposited data

How the results depend on the processing

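Counts of channel genes past the threshold were recomputed under 35 alternatives, 2 of them chosen after seeing the data (the probe of highest normalized level, and leaving out WT MMC replicate 3 and SMA LMC replicate 2). For SMA against WT in MMC, where 1 gene passed, the count was 0 with array medians equalized, with no detection filter, with the mean of detected probes, with only the groups compared and with array weights, and 2 with the 2 arrays left out, where Cacng8 entered the test through that choice; leaving out 1 array gave 0 to 1. The replicate block, although the numbers do not pair the samples, gave 0 in MMC as well. In raphe the count was 0 to 1 with 1 array left out, and the median difference of the channel genes ran from -0.321 to -0.0838; with 1 array left out that median ran from -0.0426 to 0.184 in MMC, from -0.327 to -0.0651 in LMC and from -0.026 to 0.196 in DRG. In LMC, DRG and the mean over tissues the count was 0 under all alternatives. Between WT LMC and WT MMC the count was 2 with array weights and 1 to 2 with 1 array left out. Between WT DRG and WT LMC, where 8 genes passed, it was 15 with only the groups compared and 16 with array weights. With the probe of highest normalized level the sign of Cacnb2 turned, to 0.30 for SMA against WT in LMC, to -0.023 for the MMC effect minus the LMC effect, to 0.52 for WT DRG against MMC and to 0.60 for WT DRG against LMC; Scn3a in DRG turned to 0.10 with the mean of detected probes. In the first case another probe is read and in the second several are averaged; the cause was not tested for the other changes. Equalizing array medians moved the median of all genes from 0.15 to 0.33 in WT LMC against MMC (172 higher and 141 lower became 386 and 106), from -0.14 to -0.40 in WT raphe against LMC (1187 and 1821 became 773 and 2572) and from -0.03 to -0.23 in SMA against WT in DRG. Over all settings, 472 of the counts kept within 1.5 times the reported value and 16 did not. Of the values of single genes, 3024 kept their direction and side of the threshold, 100 no longer passed, 11 passed in addition and 5 turned. Low levels limit Cacna1c, Cacng2, Cacng8 and Gem, which lie near background in several groups.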
